A study of Homo sapiens with 18 samples.

Results

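The 38 genes described here encode plasma carriers, apolipoproteins, acute phase proteins and the enzymes that build or process lipoproteins. They were chosen by symbol, with earlier results of these data known. Of these, 34 were listed in both of the authors' tables of gene statistics, which have 14765 genes in common. AFM, GC, HRG and CRP, which encode the vitamin E binding protein afamin, the vitamin D binding protein, histidine-rich glycoprotein and C-reactive protein, were listed in neither. Poly-A RNA had been sequenced from 18 libraries in 3 groups of 6. H33 and H12 are each 1 clone of HepG2 cells with the DNAJB1-PRKACA fusion genotype, and HepG2, a human hepatoblastoma line labelled WT, is what both were compared with. The fusion joins a heat shock co-chaperone to the catalytic subunit of the cAMP-dependent kinase PKA and defines fibrolamellar carcinoma, and the study asked which genes differ in cells that carry it. The labels give the 3 groups the same RPMI1640 medium with fetal bovine serum and antibiotics. The 6 replicates per group are named biological, but separate cultures are not mentioned, and the p-values refer to the spread among these libraries only. With 1 clone per line, a change covers every difference between a clone and HepG2, not the fusion alone.

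Hepatocytes make most of the protein in blood plasma. Albumin and smaller carriers bind hormones, vitamins, metals and haem, while apolipoproteins wrap lipids into particles: APOB forms very low density lipoprotein with the help of the transfer protein MTTP, and APOA1 and APOA2 form high density lipoprotein. In inflammation, interleukin 6 and interleukin 1 raise the acute phase genes in hepatocytes through STAT3, NF-kB and C/EBP factors. Most of these genes depend on liver transcription factors of the HNF1, HNF4 and FOXA families, and HepG2 cells are widely used because they still secrete many plasma proteins.

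The values are 1 table of statistics per clone, without values per library, so library depth and the spread between libraries are unknown. Each table lists, per gene, the clone over HepG2 fold change in log2, the mean log2 CPM (counts per 1000000, scaling not given) and a likelihood ratio. From these a level in CPM was implied for each group, and a standard error (SE) for each fold change. That SE restates the likelihood ratio, so where a fold change is large it need not be a sampling error. HepG2 levels are those implied by the H33 table, and for the 34 genes they differed from those of the H12 table by -0.0335 to 0.016 log2 units. CPM is not scaled to gene length, so levels are compared between groups and not between genes. The implied levels of all listed genes summed to 943300 CPM in H33, 938200 CPM in H12 and 1061000 CPM in HepG2. A level is therefore not a share of exactly 1000000. A gene was called at an adjusted p under 0.05.

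Most of these genes fell steeply in both clones, a few fell less (LRG1, LCAT and ANGPTL4 kept 7.24%, 14.3% and 70.1% of HepG2 in H33), and 2 rose. In the authors' deposited tables, 32 of the 34 genes were lower and 2 were higher in H33, and the same counts were found in H12. Among all listed genes, 45.3% were lower and 44.2% higher in H33, and 44.3% were lower and 41.8% higher in H12. The median log2 fold change of the 34 genes in the authors' deposited tables was -8.61 in H33 and -5.85 in H12, beside -0.02 and -0.03 for all listed genes. Summed over the 34 genes, the implied level was 187.7 CPM in H33 and 1033 CPM in H12, against 60290 CPM in HepG2. SAA1 and SAA2, the inducible serum amyloid A genes, were the 2 that rose. In bulk RNA, fewer expressing cells and less RNA per cell cannot be told apart.

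**Figure D1:**
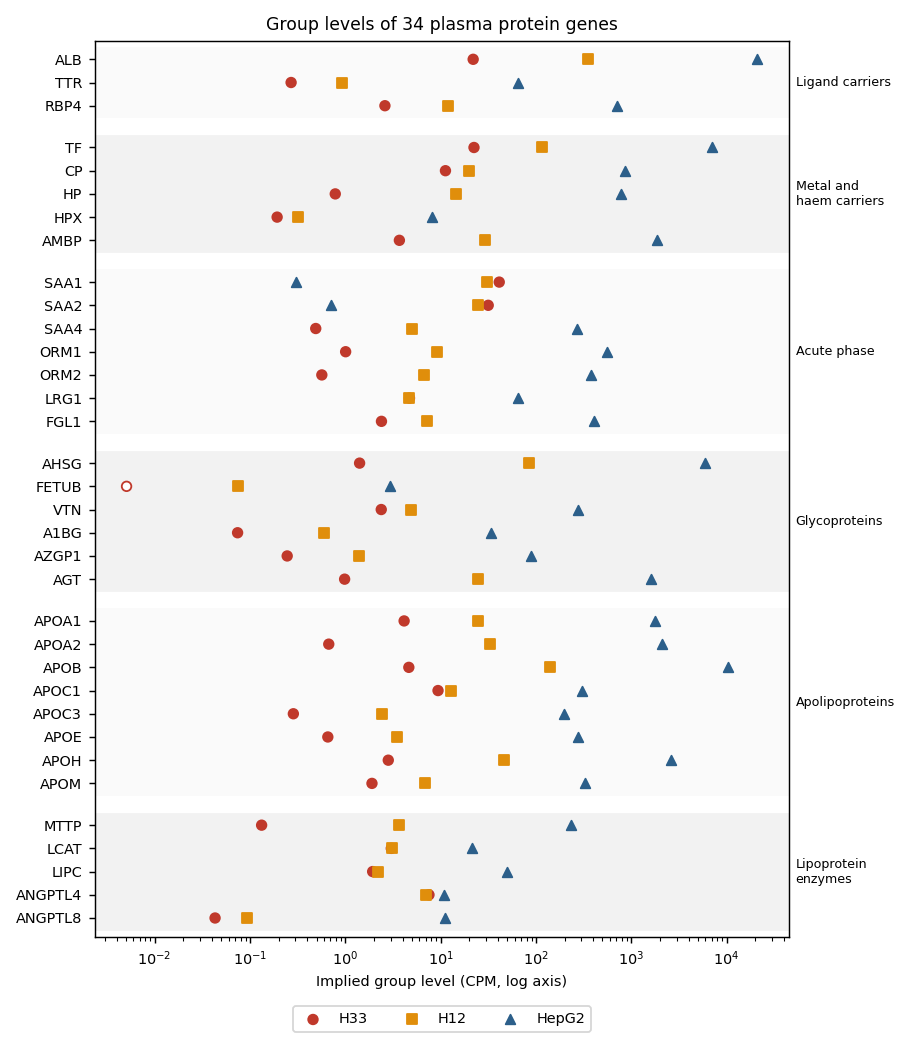
Implied level of each of the 34 genes in H33 (circles), H12 (squares) and HepG2 (triangles), in CPM on a log axis, grouped by role; the open circle is a level at the fitted floor. ALB stands at 21.99 CPM in H33, 348.7 CPM in H12 and 20980 CPM in HepG2, and SAA1 and SAA2 are the 2 genes whose HepG2 level lies left of both clones.

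The lineage label was checked on 7 markers of HepG2 cells. Of these, 5 fell and 2 rose in H33 and in H12 by the authors' deposited tables. AFP, the fetal counterpart of albumin, had an implied level of 0.0372 CPM in H33 and 67.2 CPM in H12, against 4111 CPM in HepG2. The keratin genes KRT8 and KRT18 rose, by 0.74 and 0.88 in H33 and by 0.65 and 0.78 in H12 in the authors' deposited tables. The clones thus go against their hepatoblastoma label on AFP and 4 other markers (GPC3, DLK1, HNF4A and EPCAM), and not on the keratins. Of markers for other cell types, 1 of 5 endothelial, 3 of 6 fibroblast, 3 of 5 leukocyte, 2 of 4 cholangiocyte and 4 of 5 neuroendocrine genes were listed. Their summed levels in H33, H12 and HepG2 were 0.385, 0.311 and 1.21 CPM for endothelial genes, and 4.86, 2.38 and 6.45 CPM for fibroblast genes. Of the latter, COL3A1 was higher (6.40 in H33 and 5.00 in H12) and PDGFRB lower (-4.79 and -4.93) in the authors' deposited tables. The sums of leukocyte genes were 183.3, 188.0 and 3197 CPM, most of the HepG2 sum being lysozyme (LYZ). CD68 rose instead, to 177.9 CPM in H33 and 135.6 CPM in H12, against 64.4 CPM in HepG2. The sums were 262.9, 263.2 and 235.0 CPM for cholangiocyte genes, of which KRT19 was higher (2.36 in H33 and 2.27 in H12) and SOX9 lower (-2.00 and -1.65) in the authors' deposited tables. They were 2532, 2376 and 99.6 CPM for neuroendocrine genes, of which SCG2 alone made up 2392, 2259 and 0.142 CPM. The part of these markers in the results was not tested. PECAM1, VWF, PTPRC, CD3E, DCN and LUM, which define endothelial cells, leukocytes and fibroblasts, were not listed.

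Carriers of hormones and vitamins fell in both clones, to between 0.105% and 0.419% of HepG2 in H33. ALB, which encodes albumin, stood at 21.99 CPM in H33 and 348.7 CPM in H12, against 20980 CPM in HepG2. These levels are 0.105% and 1.65% of HepG2, and the log2 fold changes in the authors' deposited tables were -9.90 (SE 0.07) and -5.92 (SE 1.59). TTR, the thyroxine and retinol carrier transthyretin, had 0.270 CPM in H33 and 0.930 CPM in H12, against 64.5 CPM in HepG2. For its partner RBP4, which carries retinol, the levels were 2.61 CPM in H33 and 11.9 CPM in H12, against 707 CPM in HepG2. Every gene of this trio was lower in both clones, and lower in H33 than in H12 by its implied level. None of them passed the test of the H33 minus H12 difference given below (adjusted p = 0.164 for ALB, 0.211 for TTR and 0.125 for RBP4).

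Promoter sequence was looked at because the genes moved together. The table of RefSeq promoters (build GRCh38.p14, 250 bases before to 50 after a start) held 30 windows for 23 of the 34 genes. SAA1 and SAA2, which rose, had no window, so the members' shares cover only genes that fell. The HNF1 half-site GTTAAT was found on either strand in 4 of these windows (13.3%), beside 6.88% of all 35116 windows. ALB, APOH, LIPC and SAA4 hold it. The last 100 bases before their starts are shown with the half-site in capitals, from chr4:73404187-73404286 (plus strand), chr17:66229416-66229515 (minus), chr15:58431891-58431990 (plus) and chr11:18236803-18236902 (minus).
ALB: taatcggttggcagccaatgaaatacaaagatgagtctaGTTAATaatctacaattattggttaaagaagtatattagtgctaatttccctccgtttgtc
APOH: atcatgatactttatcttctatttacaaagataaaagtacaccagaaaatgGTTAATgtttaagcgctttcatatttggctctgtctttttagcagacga
LIPC: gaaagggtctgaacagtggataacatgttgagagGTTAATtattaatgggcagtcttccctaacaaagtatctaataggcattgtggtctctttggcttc
SAA4: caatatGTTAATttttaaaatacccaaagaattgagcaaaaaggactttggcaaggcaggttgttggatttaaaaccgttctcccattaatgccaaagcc
The half-site begins 61, 49, 66 and 94 bases before the start in ALB, APOH, LIPC and SAA4, in that order. LIPC fell less than ALB, APOH and SAA4, which hold the same letters.

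The FOXA words TGTTTAC and TGTTTGC were found on either strand in 4 windows (13.3%), beside 7.17% of all windows. In APOA2, AMBP and VTN the match lies 42 to 47 bases before the start on the reverse strand, and it is in capitals in the last 100 bases before the start from chr1:161223629-161223728 (minus), chr9:114078301-114078400 (minus) and chr17:28370308-28370407 (minus). The 4th window is that of AHSG.
APOA2: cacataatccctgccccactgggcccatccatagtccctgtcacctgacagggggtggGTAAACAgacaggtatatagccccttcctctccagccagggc
AMBP: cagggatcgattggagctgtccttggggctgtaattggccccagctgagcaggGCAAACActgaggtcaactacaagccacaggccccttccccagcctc
VTN: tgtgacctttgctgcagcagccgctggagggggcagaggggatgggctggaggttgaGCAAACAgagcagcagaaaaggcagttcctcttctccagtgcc
ANGPTL4, the gene that changed least, is shown as well from chr19:8364055-8364154 (plus), with its TATA box word TATAAA in capitals. On either strand and at any position, the same word is in windows of AGT, FETUB, MTTP, ORM1 and RBP4, which fell further in both clones. The match in MTTP is on the reverse strand and further from the start than that in ANGPTL4. Whether the word has a part in the size of a fall was not tested.
ANGPTL4: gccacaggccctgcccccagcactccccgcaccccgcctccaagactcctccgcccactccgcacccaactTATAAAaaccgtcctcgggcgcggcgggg
TATAAA was in 26.7% of the members' windows and 11.5% of all windows, the C/EBP word TTGCNNAA in 30.0% and 10.5%, the STAT word TTCNNNGAA in 20% and 7.66%, and the HNF4 word CAAAGTCC in 6.67% and 1.20%. The cAMP response element TGACGTCA was in 0 of the 30 windows and in 1.85% of all windows. The shorter word TGACGT, which the full element contains, was in 6.67% and 7.98%. These matches describe letters in the windows and were not tested as binding sites.

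Carriers of iron, copper and haem fell in the same way, with HPX and CP keeping the largest share of their HepG2 level in H33. TF, the iron carrier transferrin, stood at 22.4 CPM in H33 and 115.6 CPM in H12, against 7116 CPM in HepG2. HP, which encodes haptoglobin, the scavenger of free haemoglobin, had 0.786 CPM in H33 and 14.6 CPM in H12, against 778.5 CPM in HepG2. AMBP, the precursor of the haem-binding alpha-1-microglobulin and of bikunin, had 3.70 CPM in H33 and 29.4 CPM in H12, against 1885 CPM in HepG2. The copper ferroxidase ceruloplasmin (CP) retained more, with 11.3 CPM in H33 and 19.9 CPM in H12, against 865.0 CPM in HepG2. HPX, the haem scavenger hemopexin, was at 2.35% of HepG2 in H33 and 3.83% in H12. In the authors' deposited tables the log2 fold changes of these 5 genes lay between -9.95 and -5.41 in H33 and between -6.01 and -4.71 in H12.

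Acute phase genes split. Of the 7 listed, 5 fell and 2 rose in each of the authors' deposited tables. SAA1, an inflammation-induced apolipoprotein of high density lipoprotein, had 41.3 CPM in H33 and 30.4 CPM in H12, against 0.307 CPM in HepG2. In the authors' deposited tables its log2 fold change was 7.07 (SE 0.12) in H33 and 6.64 (SE 0.13) in H12, with an adjusted p listed as 0 in both. SAA2, its close relative, had 31.6 CPM in H33 and 24.8 CPM in H12, against 0.708 CPM in HepG2, with log2 fold changes of 5.48 (SE 0.10) and 5.14 (SE 0.11) in the authors' deposited tables. SAA4, the constitutive serum amyloid A gene, moved the other way: it had 0.490 CPM in H33 and 5.00 CPM in H12, against 268.6 CPM in HepG2. The orosomucoid genes ORM1 and ORM2, which encode drug-binding acid glycoproteins, stood at 0.182% and 0.149% of HepG2 in H33 and at 1.63% and 1.74% in H12. The fibrinogen-like hepatokine FGL1 was at 0.592% in H33 and 1.76% in H12. LRG1, a leucine-rich glycoprotein induced in inflammation, fell least among them, to 4.72 CPM in H33 and 4.66 CPM in H12, against 65.2 CPM in HepG2. The rise of SAA1 and SAA2 is therefore not shared by the other acute phase genes that were listed.

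The other glycoproteins included AHSG, which had the deepest fall of the 34 genes in H33 and not in H12. AHSG, the mineral-binding fetuin-A, stood at 1.42 CPM in H33 and 84.8 CPM in H12, against 5949 CPM in HepG2. This is 0.0238% of the HepG2 level in H33 and 1.42% in H12, with log2 fold changes of -12.04 (SE 0.08) and -6.14 (SE 1.54) in the authors' deposited tables. AGT, which encodes angiotensinogen, the source of the angiotensins, had 0.985 CPM in H33 and 24.5 CPM in H12, against 1608 CPM in HepG2. VTN, the adhesive protein vitronectin, had 2.39 CPM in H33 and 4.94 CPM in H12, against 279.5 CPM in HepG2. AZGP1, the zinc-alpha-2-glycoprotein, and A1BG were at 0.274% and 0.220% of HepG2 in H33 and at 1.54% and 1.73% in H12. FETUB, the fetuin-B gene, lay at the fitted floor in H33, under 0.00781 CPM, and at 0.0757 CPM in H12, against 2.95 CPM in HepG2. No fold is given for it, because at the floor it would be set by the prior count.

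All 8 apolipoprotein genes of the group fell in both of the authors' deposited tables. APOB, the structural protein of very low density lipoprotein, stood at 4.65 CPM in H33 and 141.9 CPM in H12, against 10350 CPM in HepG2. Of the high density lipoprotein genes, APOA1 had 4.15 CPM in H33 and 24.9 CPM in H12, against 1768 CPM in HepG2. APOA2 fell further in H33, to 0.672 CPM, and stood at 32.95 CPM in H12, against 2080 CPM in HepG2. The phospholipid-binding APOH had 2.83 CPM in H33 and 46.3 CPM in H12, against 2626 CPM in HepG2. APOC3, an inhibitor of triglyceride clearance, APOE, the ligand of remnant receptors, and APOM, a sphingosine 1-phosphate carrier, were at 0.145%, 0.240% and 0.588% of HepG2 in H33. In H12 they were at 1.21%, 1.26% and 2.12%. APOC1 retained most, with 9.41 CPM in H33 and 12.8 CPM in H12, against 301.9 CPM in HepG2. Its log2 fold changes of -5.00 (SE 0.06) and -4.57 (SE 0.34) in the authors' deposited tables were the nearest to 0 among the 8.

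The lipoprotein enzymes and lipase regulators spanned the widest range of falls. MTTP, which loads lipid onto APOB, had 0.133 CPM in H33 and 3.67 CPM in H12, against 231.8 CPM in HepG2. LIPC, the hepatic lipase gene, had 1.94 CPM in H33 and 2.2 CPM in H12, against 49.7 CPM in HepG2. LCAT, which esterifies cholesterol on high density lipoprotein, kept 14.3% of its HepG2 level in H33 and 14.2% in H12. The 2 angiopoietin-like inhibitors of lipoprotein lipase differed from each other. ANGPTL8 had 0.0431 CPM in H33 and 0.0927 CPM in H12, against 11.2 CPM in HepG2, whereas ANGPTL4 had 7.56 CPM in H33 and 6.96 CPM in H12, against 10.8 CPM in HepG2. ANGPTL4 was the smallest change among the 34 genes, with log2 fold changes of -0.51 (SE 0.14, adjusted p = 0.000239) in H33 and -0.63 (SE 0.15, adjusted p = 2.14e-05) in H12 by edgeR in the authors' deposited tables.

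**Figure D2:**
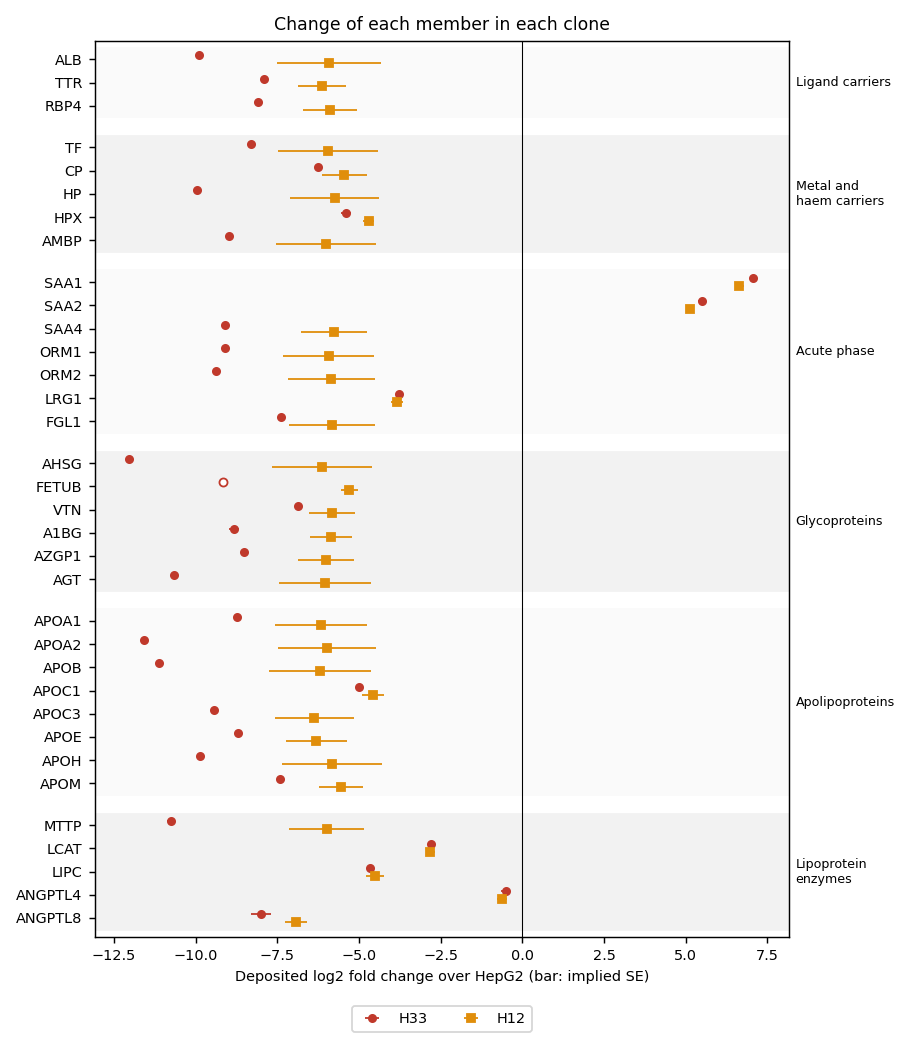
Deposited log2 fold change of each gene over HepG2 in H33 (circles) and H12 (squares), with bars of 1 implied SE either side; the open circle is FETUB, at the fitted floor in H33. H33 values run from -12.04 to 7.07, while 23 of the 34 H12 values lie between -6.5 and -5.5.

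The falls in H12 gathered in a narrow range. The 24 genes under -7 in H33 ranged from -12.04 to -7.40 there, and their SD over genes was 1.25 log2 units. In H12 the same 24 ranged from -6.93 to -5.30 with an SD of 0.304, and their median level was 1.60% of HepG2. These genes were picked by their H33 values, FETUB at the floor among them, so their H33 level is not set against that in H12. The implied SE of these 24 genes had a median of 0.08 in H33 and 1.32 in H12, while over all listed genes the median SE was 0.07 in H33 and 0.10 in H12. The gathering was not limited to these genes. The 407 other genes under -7 in H33 with at least 10 CPM in HepG2 centred on -5.89 (median) in H12 according to the authors' deposited table, with an SD of 0.224 and a median implied SE of 0.75. Without values per library, whether the level left in H12 was shared by its 6 libraries or came from fewer of them was not tested.

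**Figure D3:**
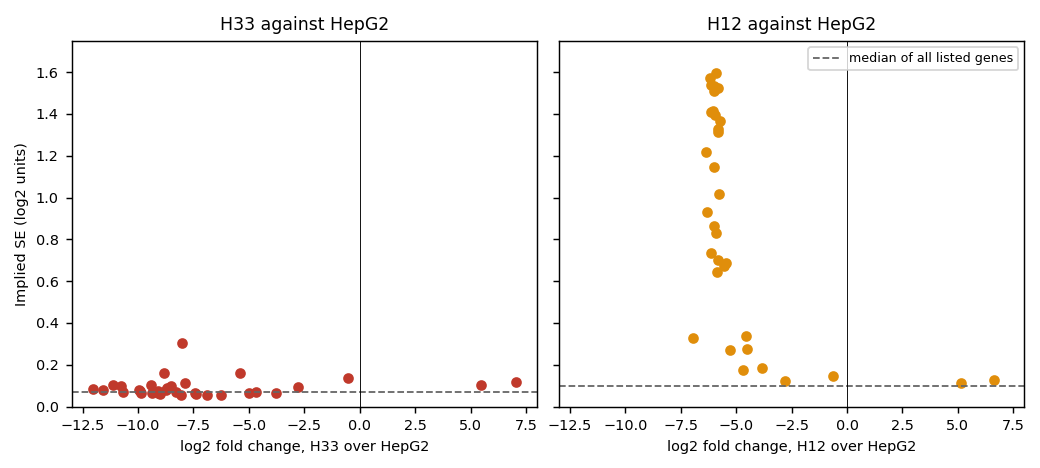
Implied SE in log2 units against the deposited log2 fold change for the 34 genes in H33 (left) and H12 (right), 1 point per gene, FETUB left out of H33; the dashed line is the median SE of all listed genes, 0.07 in H33 and 0.10 in H12. Genes near -6 in H12 reach an SE of 1.59 (ALB), and the highest point in H33 is 0.31 (ANGPTL8).

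The difference between clones was tested for each gene as the H33 minus the H12 log2 fold change over its combined SE, with Benjamini-Hochberg adjustment over 14765 genes. Of the 34 genes, 9 differed, all 9 lower in H33, beside 5.40% of all genes in either direction. FETUB, at the floor in H33, is 1 of them and its difference is not given. All 9 are among the genes that gather in H12 at 0.821% to 2.54% of HepG2. Those genes lie under -7 in H33 and above -7 in H12, so any that passed had to be lower in H33. Their shared direction is therefore no separate result. Whether HepG2 RNA in some H12 libraries, or libraries mixed up, has a part in these differences was not tested, so they compare the libraries labelled H33 and H12. The others were AHSG (-5.90, SE 1.54), APOA2 (-5.61, SE 1.51), APOB (-4.92, SE 1.58), MTTP (-4.78, SE 1.15), AGT (-4.63, SE 1.42), HP (-4.20, SE 1.37), SAA4 (-3.34, SE 1.02) and A1BG (-2.97, SE 0.66). With the 2 tables sharing the HepG2 libraries, the combined SE counts their spread more than once. At an adjusted p under 0.01 the count was 5, and with Bonferroni adjustment or doubled SEs it was 1, FETUB.

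The other 25 genes were not past the threshold. For ALB the difference of -3.98 had a 95% interval from -7.11 to -0.85 and an adjusted p of 0.164, so neither a large gap nor a small one is shown. Among the 8 genes that fell less than the split at -7 in H33, the intervals varied in width. The difference was 0.01 for LCAT (-0.29 to 0.31), 0.04 for LRG1 (-0.34 to 0.42), 0.12 for ANGPTL4 (-0.27 to 0.52) and -0.16 for LIPC (-0.71 to 0.40). It was -0.43 for APOC1 (-1.10 to 0.24), and the intervals were wider for CP (-0.81, -2.16 to 0.54) and VTN (-1.04, -2.41 to 0.34). That of HPX (-0.70, -1.17 to -0.24) lay below 0, with an adjusted p of 0.0564. SAA1 was higher in H33 than in H12 by 0.43 (0.09 to 0.77), which did not pass after adjustment (adjusted p = 0.177).

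Several members lie side by side in the genome, and neighbours did not always move together. Positions are from GENCODE 29 on GRCh38. SAA4 (chr11:18231349-18236893), SAA2 (chr11:18239223-18248643) and SAA1 (chr11:18266174-18269977) form a cluster on chromosome 11. There SAA1 and SAA2 rose and SAA4 fell in both of the authors' deposited tables. APOA1 (chr11:116835751-116837950) and APOC3 (chr11:116829706-116833072) lie within 48.6 kb with APOA4 and APOA5. APOA4, named after its values were seen, was at 0.630 CPM in H33 and 0.0637 CPM in H12, against 3.56 CPM in HepG2. It is unlike its neighbours in being lower in H12 than in H33, with an H33 minus H12 difference of 3.30 (adjusted p = 2.36e-20 in the test over all shared genes). APOE (chr19:44905754-44909393) and APOC1 (chr19:44914247-44919349) lie within 43.8 kb with APOC2 and APOC4. APOC1 was at 3.12% of HepG2 in H33, while APOE stood at 0.240%, and APOC2 had a log2 fold change of -9.66 in the authors' deposited table for H33. AHSG (chr3:186612923-186621318) and FETUB (chr3:186635969-186653141) fell together, and ALB (chr4:73397114-73421412) fell with its neighbour AFP.

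**Figure D4:**
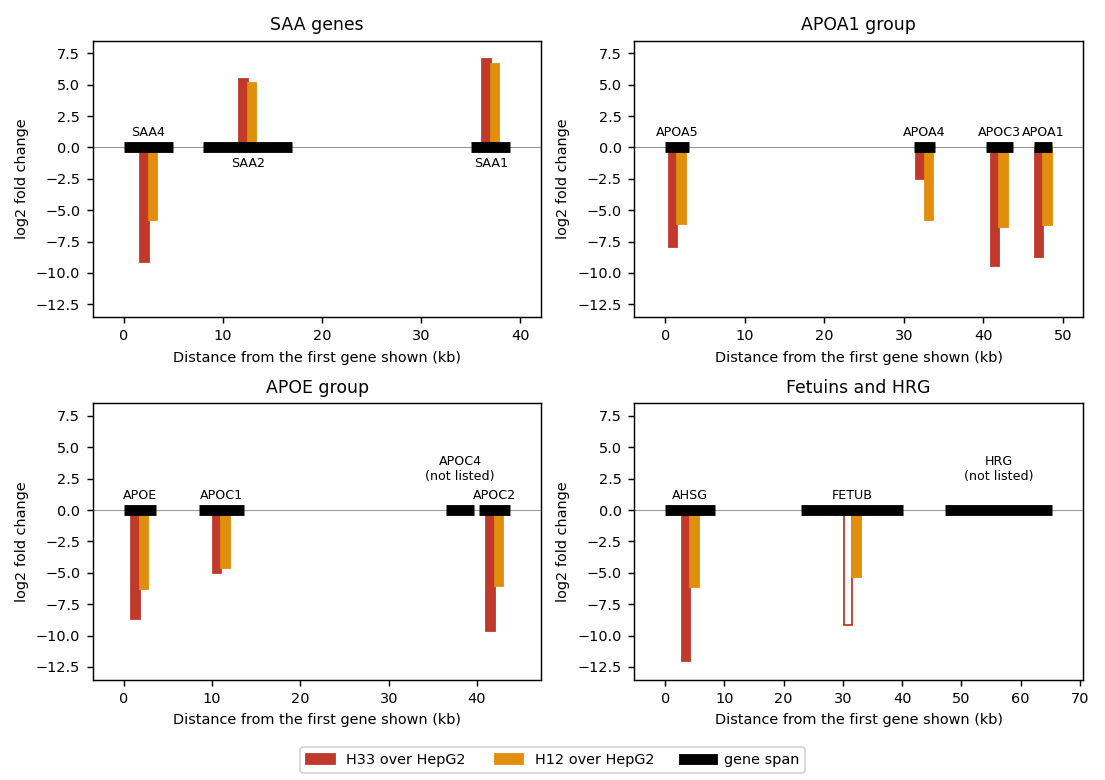
Deposited log2 fold change over HepG2 in H33 (left bar of each pair) and H12 (right bar) for genes of 4 clusters, placed by distance in kb from the first gene shown; black blocks are gene spans and the open bar is FETUB, at the floor in H33. SAA1 and SAA2 point upward by 5.14 to 7.07, SAA4 points downward, and APOA4 is the gene with a longer bar in H12 than in H33.

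Some members share sequence with other genes, so reads could be split between them. Words of 50 bases from the GENCODE 29 transcripts of each gene were looked up in the transcripts of all other genes, and 25 of the 34 genes shared under 10% of their words, 15 of them none. SAA1 shared 46.6% of its words with SAA2, and ORM1 shared 42.0% of its words with ORM2, so the split within each of these pairs is uncertain. SAA4 shared 63.4% with the read-through gene SAA2-SAA4, which rose by 4.29 in H33 and 4.33 in H12 in the authors' deposited tables. HP shared 10.8% with its relative HPR, which also fell, to 0.0939 CPM in H33 and 1.73 CPM in H12, against 105.0 CPM in HepG2. A1BG shared 38.4% with AC012313.3, an overlapping gene on the same strand. That gene fell less than A1BG (-1.91 in H33 and -2.11 in H12 in the authors' deposited tables). APOC1 shared 26.6% with the overlapping AC011481.3, which fell as well (-6.56 and -4.74 in the authors' deposited tables). In the annotation, 14 members overlap a gene that is listed. VTN lies within the span of SARM1 on the other strand, and SARM1 rose by 4.73 in H33 and 4.44 in H12 in the authors' deposited tables. CP is overlapped by HPS3 on the other strand, which rose by 2.12 and 2.03 in the authors' deposited tables. These overlaps are of whole gene spans, and whether exons overlap was not checked. The use of strand in counting is not given in the sources used here, so whether reads of such partners were mixed is unknown.

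Other apolipoproteins and proteins of high density lipoprotein fell less as a group. Of 18 on the list, 14 were listed, and 10 fell and 2 rose in H33 (median log2 fold change -2.07 in the authors' deposited table). In H12 11 fell and 2 rose (median -2.12 in the authors' deposited table). Beside these counts, 45.3% of all listed genes were lower and 44.2% higher in H33, and 44.3% and 41.8% in H12. APOC2, the activator of lipoprotein lipase, had 0.703 CPM in H33 and 8.74 CPM in H12, against 568.4 CPM in HepG2. APOA5, APOF and the paraoxonase PON3 had log2 fold changes of -7.93, -7.12 and -7.92 in H33 in the authors' deposited table. APOO, a mitochondrial protein despite its name, rose by 1.74 in H33 and 1.68 in H12 in the authors' deposited tables, and APOL6 rose by 0.56 and 0.47.

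Lipoprotein receptors, transfer proteins and assembly factors fell for the most part. Of 24 listed, 19 were lower and 5 higher in H33 and 19 lower and 4 higher in H12 in the authors' deposited tables, with medians of -1.68 and -1.87. The shares of all listed genes were 45.3% lower and 44.2% higher in H33, and 44.3% and 41.8% in H12. The sterol exporters ABCG5 and ABCG8 fell, with log2 fold changes of -9.94 and -9.47 in the authors' deposited table for H33 and -6.24 and -6.08 in that for H12. Against this direction, the authors' deposited tables had the cholesterol exporter ABCG1 higher by 3.22 and 2.94, the phospholipid transfer protein PLTP by 1.71 and 1.48, and MYLIP, which degrades lipoprotein receptors, by 1.62 and 1.67. The receptor LRP8 rose by 0.75 in H33 and 0.63 in H12 in the authors' deposited tables, and the lipase maturation factor LMF1 by 0.29 in H33, with 0.18 in H12, which did not pass.

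Of 19 listed genes of acute phase signalling, 9 were lower and 6 higher in each of the authors' deposited tables, with medians of -0.08 in H33 and -0.16 in H12. Over all listed genes 45.3% were lower and 44.2% higher in H33, and 44.3% and 41.8% in H12, so these counts are no result about the list. The interleukin 6 receptor IL6R fell to 3.68 CPM in H33 and 3.56 CPM in H12, against 57.0 CPM in HepG2, and the interleukin 1 co-receptor IL1RAP fell as well (-3.84 and -3.29) in the authors' deposited tables. SOCS3, a STAT3 target that restrains the pathway, rose to 26.3 CPM in H33 and 22.5 CPM in H12, against 1.89 CPM in HepG2. STAT3 rose by 0.79 and 0.64, JAK2 by 0.40 and 0.53, and the receptor genes TNFRSF1A by 1.67 and 1.59, LIFR by 1.44 and 1.52 and IL1R1 by 1.40 and 1.29 in the authors' deposited tables. CEBPA, which encodes the C/EBP factor of mature hepatocytes, fell (-3.08 in H33 and -3.09 in H12) in the authors' deposited tables.

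Most liver transcription factors of plasma protein genes fell. Of 20, 17 were lower and 2 higher in each of the authors' deposited tables, with medians of -6.52 in H33 and -5.68 in H12. Across all listed genes 45.3% were lower and 44.2% higher in H33, and 44.3% and 41.8% in H12. HNF4A had 0.785 CPM in H33 and 5.62 CPM in H12, against 347.8 CPM in HepG2. FOXA3 and the bile acid receptor NR1H4 fell, with log2 fold changes of -8.97 and -8.78 in the authors' deposited table for H33 and -5.86 and -5.91 in that for H12. HNF4G lay at the floor in H33, with 0.568 CPM in H12, against 28.8 CPM in HepG2. The clock-linked factors DBP (4.33 and 3.97) and TEF (0.92 and 0.79) rose in the authors' deposited tables. NR5A2, named after its values were seen, fell (-2.93 in H33 and -0.54 in H12) in the authors' deposited tables.

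The secretory machinery that exports these proteins had small falls for the most part. Of 36 genes of the secretory pathway, 27 were lower and 5 higher in H33 and 27 lower and 2 higher in H12 in the authors' deposited tables, with medians of -0.74 and -0.70. For all listed genes the shares were 45.3% lower and 44.2% higher in H33, and 44.3% and 41.8% in H12. The largest falls in H33 were those of the signal peptidase subunit SEC11C (-2.56), the COPII coat genes SEC24D (-2.07) and SEC31A (-2.01) and the oligosaccharyltransferase subunit OSTC (-1.78) in the authors' deposited table. The same genes stood at -2.65, -2.18, -1.90 and -1.62 in the authors' deposited table for H12. SSR4, of the translocon-associated complex, rose by 0.82 in H33 and 0.53 in H12, and the COPII GTPase SAR1A by 0.38 and 0.35 in the authors' deposited tables. RPN1 (0.25), SSR2 (0.20) and MIA3 (0.15) were higher in the authors' deposited table for H33, but in H12 none of the 3 passed.

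Receptors and clearance genes for plasma carriers included a pair of large rises. Of 13 listed, 9 were lower and 4 higher in H33 and 8 lower and 2 higher in H12 in the authors' deposited tables, with medians of -2.38 and -2.61. Among all listed genes, 45.3% were lower and 44.2% higher in H33, and 44.3% and 41.8% in H12. STRA6, the cell surface receptor for retinol-loaded RBP4, had 25.2 CPM in H33 and 22.8 CPM in H12, against 0.155 CPM in HepG2. CUBN, the endocytic receptor cubilin that takes up albumin, transferrin and APOA1, had 108.2 CPM in H33 and 106.2 CPM in H12, against 0.969 CPM in HepG2. The iron hormone gene HAMP fell (-10.39 in H33 and -6.10 in H12) in the authors' deposited tables. The transferrin receptor TFR2 had 0.157 CPM in H33 and 1.11 CPM in H12, against 70.5 CPM in HepG2, and the asialoglycoprotein receptor genes ASGR1 and ASGR2 fell (-7.70 and -9.42) in the authors' deposited table for H33. TFRC and the ferritin gene FTL were higher by 0.60 and 0.54 in the authors' deposited table for H33. In that for H12 they stood at 0.30 and 0.42, not past the threshold.

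**Figure D5:**
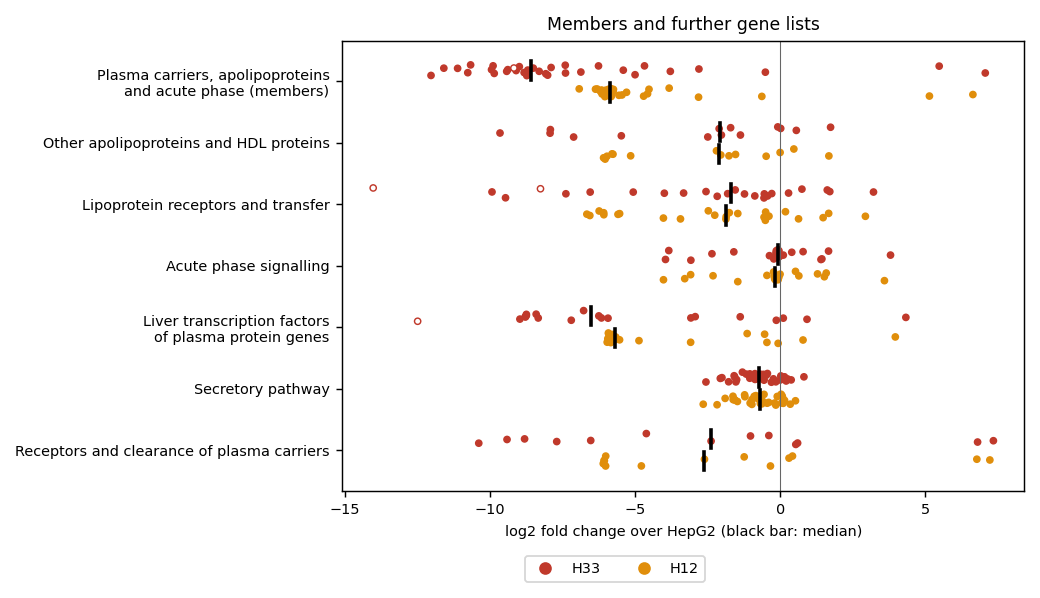
Deposited log2 fold changes over HepG2 in H33 (upper row of each list) and H12 (lower row) for the 34 genes and 6 further lists, with black bars at the medians and open circles for levels at the fitted floor. The members' medians lie at -8.61 and -5.85 and those of the secretory pathway at -0.74 and -0.70.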

How the data were processed

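The data are the authors' statistics for 2 comparisons, with 14888 genes for H33 and 14896 for H12, each set against HepG2. No values per library were used. Per the submitters' processing notes, bcl2fastq 2.20.0.422, STAR 2.5.3a, RSEM, edgeR 3.28.0 and GRCh38.p10 were used, without roles or order. Per the file headers, the columns are the log2 fold change, the mean log2 CPM, a likelihood ratio (a score per gene), the p-value and its adjusted form. Deposited p-values matched a chi-square distribution of that score with 1 degree of freedom. Low-count filter, scaling, dispersion settings and strand use: not given in the sources used here.

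Because the deposited tables hold no counts, their tests were used in place of a new count model. The SE was the absolute log2 fold change over the root of the likelihood ratio. A level per group was derived by splitting the mean CPM by the fold change between equally sized groups. Levels under 0.00781 CPM were treated as the fitted floor, near which an SE is not a sampling error. Above the floor, too, the SE of a large fold change only restates the likelihood ratio and need not be a sampling error. The intervals and p-values of the H33 minus H12 difference carry the same limit. The H33 minus H12 test used a two-sided normal p. Its code was run on simulated data with independent normal errors, taking the implied SEs as true. That run therefore cannot show whether the implied SEs are right or what the shared HepG2 libraries do. It also says nothing of genes near the floor. Members and lists were chosen with earlier results of these data known. Named genes were all members, up to 4 of each list with the largest changes in H33, and genes called against the direction of most of their list. Some genes near the floor carry no fold change. Some genes that the rule names are not reported here. Scripts ran in Python 3.11.15 with pandas 2.3.3, scipy 1.17.1, matplotlib 3.10.9 and numpy 2.4.6.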

Additional observations from a re-analysis of the deposited data

Results flagged for a closer look

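The log2 fold change differed between H33 and H12 for 8 members above the floor by the test of the difference itself, with Benjamini-Hochberg adjustment over 14765 genes. The H33 minus H12 differences were -5.90 for AHSG, -5.61 for APOA2, -4.92 for APOB and -4.78 for MTTP. They were -4.63 for AGT, -4.20 for HP, -3.34 for SAA4 and -2.97 for A1BG. All 8 lie among the genes that gather near 1.60% of HepG2 in H12, and the part of HepG2 RNA in H12 libraries was not tested. Among genes named from the further lists the difference was -4.29 for HAMP, -3.69 for ABCG5, -3.39 for ABCG8, -3.11 for FOXA3, -2.87 for NR1H4 and -2.80 for TFR2. It was -2.39 for NR5A2, -0.55 for IL1RAP and 0.29 for SSR4. In the authors' deposited table for H12, HAMP, ABCG5, ABCG8, FOXA3, NR1H4 and TFR2 stood at -6.10, -6.24, -6.08, -5.86, -5.91 and -6.01. They too lie among the genes that gather in H12, and the part of HepG2 RNA was not tested for them either. HAMP, ABCG5, ABCG8 and FOXA3 were also low in H33, at 0.0302, 0.0237, 0.0300 and 0.0679 CPM. APOA4 stood out with a difference of 3.30, the opposite sign to all 8 members.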

How the results depend on the processing

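No paired analysis was possible because the tables hold no values per library, and for the same reason leaving out single libraries was not run. The count of 32 lower members was 31 in each clone when changes smaller than 1 log2 unit were not counted, 31 with a mean of at least 1 log2 CPM and 30 without the near-identical pairs. A stricter adjusted p and subtraction of the median of all genes left it at 32, but could hardly have moved it, with the largest adjusted p at 0.00027. Without the near-identical pairs (ORM1, ORM2, SAA1, SAA2) the number of higher members was 0 in both H33 and H12, since both risers are in those pairs. The H33 median moved to -8.51 with a mean of at least 1 log2 CPM, and to -8.35 with implied levels under 0.1 CPM set to 0.1 CPM. The number of members that differed between the clones was 5 at an adjusted p under 0.01, 1 with Bonferroni adjustment and 1 with doubled SEs, against 9 as computed. That 1 was FETUB both times, at the floor in H33, so no member above the floor passed these 2 settings. With an implied level of at least 0.1 CPM in every group the count was 7. FETUB and A1BG, the latter at 0.0743 CPM in H33, lie under that level. ANGPTL4 did not reach an absolute log2 fold change of 1 in either clone. Most settings change a threshold and not a fold change, so they say nothing about direction. Depth per library is unknown.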
